A study of Mus musculus with 3 samples.

Results

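The cells described here are mouse neutrophils that had entered human skin implanted under the skin of mice. They were chosen by S100a8 and S100a9, which encode the 2 chains of calprotectin, a calcium-binding protein that fills the cytosol of neutrophils. A cell was a member if these genes made up at least 2% of its gene UMIs and if it had no UMI of the T cell genes Cd3d, Cd3e, and Cd3g. Of the 2144 cells kept from the graft, 391 were members (18.2%, 95% interval 16.6% to 19.9%). Human split-thickness skin grafts (hSTSGs), sheets of epidermis with the upper dermis, had been implanted in wild-type mice (C57BL6/J), and on day 14 the cells of the explanted grafts of 5 mice were released with collagenase IV and sequenced as 1 droplet library. Only mouse genes were counted, so cells of the human donor could not be identified. For comparison there were 2 further libraries, from bone marrow cells of C57/BL6 mice grown for 7 days with GM-CSF, a growth factor of myeloid cells, and then left untreated (Co-Mac) or given 1 μM of the active form of vitamin D3 for 24 hours (VD-Mac). The age and sex of the mice were not stated.

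Neutrophils are made in the bone marrow, where precursors fill their granules in order: azurophil granules with Elane, Mpo, and other proteases, then specific granules with Ltf and Camp, then gelatinase granules with Mmp9. Transcription of granule genes falls as the cells mature, while receptors such as Cxcr2, which binds CXC chemokines, rise and allow release to the blood. In inflamed tissue mature neutrophils transcribe cytokines and chemokines such as Il1b and Cxcl2 and are usually short-lived.

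Each RNA molecule captured in a droplet is tagged with a unique molecular identifier (UMI), and PCR copies of it count once. The authors deposited raw UMI counts per gene and cell. The graft library held 24472168 gene UMIs in 2644 cells, of which 306 had fewer than 300 genes, 2 had 100000 UMIs or more, and 330 had 10% or more mitochondrial UMIs. The cells kept held 22646544 UMIs, with a median of 6637.5 per cell. Co-Mac held 136905324 gene UMIs and 7257 kept cells, and VD-Mac held 124731240 gene UMIs and 8825 kept cells. Members had few UMIs, with a median of 2378 (506 to 19485), against 8531 in the other kept cells of the graft. They also had few genes, with a median of 768 against 2567, and a low mitochondrial share, with a median of 0.472% against 3.39%. At an equal depth of 1000 UMIs per cell, the median member still showed 448 genes and the median other cell 611. Levels below are UMIs summed over cells, given as counts per 1000000 UMIs (CPM). All intervals are exact at 95% and cover counting error only. There was 1 library per condition and there were no replicates, so no test was made, and cells were not treated as replicates.

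The label was checked against markers that did not choose the cells, and these marked the members as neutrophils. Cxcr2, Csf3r, which encodes the receptor of the granulocyte growth factor G-CSF, and G0s2, which encodes an inhibitor of fat breakdown, all stood far above their levels in the other graft cells. Of the 391 members, 379 (96.9%, 94.7% to 98.4%) had at least 1 UMI of these 3 genes, against 555 of 1753 other cells (31.7%), and 12 members had none. Cxcr2 stood at 803 CPM in members against 12.7 CPM elsewhere in the graft, for a log2 ratio of 5.98 (5.78 to 6.18). The log2 ratio was 4.70 (4.59 to 4.81) for Csf3r, at 1405 CPM in members, and 5.78 (5.61 to 5.94) for G0s2, at 1008 CPM. As means over cells of each cell's CPM, with 1 CPM added, the ratios were 3.89 for Cxcr2, 3.27 for Csf3r, and 3.735 for G0s2, in place of 5.87, 4.67, and 5.70. After each cell was thinned to 1000 UMIs, Csf3r was seen in 70.1% (65.3% to 74.7%) of 385 members, with 6 shallower members left out, and Cxcr2 in 48.6% (43.5% to 53.7%). Without thinning these shares were 89.0% and 70.6%. T cells, chosen by 3 or more UMIs of the Cd3 genes and having a median of 5997.5 UMIs, served as a measure of free RNA, since they should lack both genes. Each was seen in 0.787% of the 254 T cells after thinning.

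The genes used for the choice are a description only. S100a8 stood at 70973 CPM and S100a9 at 67871 CPM in members, against 294 and 217 CPM in the other cells. Their summed share ran from 2.00% to 37.1% of a member's UMIs, with a median of 7.80%. The choice divided a continuous range. The 27 members just inside it (2% to 2.5%) had a median of 2432 UMIs, 20 of them had Csf3r, and 17 had Cxcr2. The 27 cells just outside it (1.5% to 2%) had a median of 2186 UMIs, 24 of them had Csf3r, and 14 had Cxcr2. Cells with the same markers therefore also stood among the other cells, where they add to the levels given for those. Without the condition on Cd3 genes, 397 cells would have been chosen. The graft library shared 7 barcodes with Co-Mac, of which 3 were kept, and 7 with VD-Mac, of which 6 were kept. Of the members, 1 had a barcode also found in Co-Mac and 1 a barcode also found in VD-Mac.

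Markers of other cell types were mostly low in members, with hemoglobin genes as the main exception. Of 8 macrophage markers all 8 were detected, with Cd68 highest (244 of 450 UMIs), and they summed to 374 CPM against 5393 CPM in the other cells. All 5 monocyte markers were detected and summed to 570 CPM against 2764 CPM. The highest of them, Ly6c2 (371 of 685 UMIs), went the other way, at 308 CPM in members against 45.7 CPM in the other cells. Ly6c2 has close paralogs and is not specific to monocytes. Of 6 T cell markers, 2 were detected with 2 UMIs in all, Trac and Cd247 with 1 each. Trbc2 was at 0, as were the Cd3 genes by the choice. Of 5 dendritic cell markers, 3 were detected with 4 UMIs in all and Ccr7 highest, and Cd209a and Fscn1 were at 0. For NK cells, 1 of 4 markers had a UMI (Gzma), and Ncr1, Klrb1c, and Prf1 were at 0. Fibroblast markers (4 of 5, Pdgfra at 0) summed to 141 CPM against 10206 CPM, with Col3a1 highest. Markers of the B lineage (3 of 5, Cd79b and Ms4a1 at 0) summed to 34.9 CPM against 1545 CPM, with Igkc highest. Eosinophil markers (3 of 5, Epx and Il5ra at 0) held 24 UMIs, 13 of them of Ccr3, and stood at 20.0 CPM against 7.14 CPM. Mast cell and basophil markers (2 of 5) held 2 UMIs, 1 of them of Cpa3, with Mcpt8, Gata2, and Fcer1a at 0. Platelet markers (2 of 4, Ppbp and Gp9 at 0) summed to 24.9 CPM against 841 CPM, with Pf4 highest, and the 3 keratinocyte markers were at 0. The endothelial list stood at 196 CPM against 170 CPM, but 235 of its 236 UMIs were of Pecam1, which leukocytes also transcribe, and Cdh5 and Cldn5 were at 0.

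The 3 erythroid markers, led by Hbb-bs, summed to 5133 CPM in members against 842 CPM. This came from few cells: 98.9% of 8663 hemoglobin UMIs lay in the 5 members with most of them, and 7823 lay in 1 member, where they made up 73.6% of its UMIs. Without these 5 members, Hbb-bs, Hbb-bt, Hba-a1, and Hba-a2 were lower in members than in the other cells. The part of other cell types in the results below was not tested, apart from leaving out members with C1q UMIs or hemoglobin UMIs.

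The first comparison asked how the members differed from all other cells of the same graft. They carried the known program of neutrophils at high contrast. Among genes with at least 100 CPM in members, the highest ratios of named genes included those of granule proteins, secreted antimicrobial proteins, and stefins. Ngp, which encodes a granule protein of the cathelicidin family, stood at 6914 CPM against 4.24 CPM, a log2 ratio of 10.67 (10.37 to 10.98). Camp, the cathelicidin, had a log2 ratio of 10.21 (9.79 to 10.67), and Ltf, the iron-binding lactoferrin, of 9.87 (9.47 to 10.31). These values rest on the 21 granule-gene cells described below. Without them the log2 ratios, with 1 CPM added, were 4.77 for Ngp in place of 10.36, 2.27 for Camp in place of 9.65, and 2.53 for Ltf in place of 9.35, and as means over cells of each cell's CPM they were 7.99, 7.56, and 7.02. Retnlg, a resistin-like secreted protein, stood at 6919 CPM against 16.96 CPM, with a log2 ratio of 8.67 (8.52 to 8.83), which with 1 CPM added was 8.59, 9.67 without the condition on Cd3 genes, and 5.91 as a mean over cells. For Ly6g, the surface protein by which mouse neutrophils are commonly stained, the log2 ratio was 7.37 (6.75 to 8.06). Stfa1, an inhibitor of cysteine proteases, had a log2 ratio of 8.54 (7.99 to 9.14), and Stfa2 and Stfa2l1 had 6.67 and 6.60, although UMIs of these near-identical paralogs may not be assigned with certainty. With 1 CPM added, Stfa2 had 6.22, which became 8.09 without the condition on Cd3 genes and 5.41 as a mean over cells. Further genes of this set were Cd177, a surface protein of neutrophil granules (7.02), Mrgpra2b, a receptor (7.18), Pglyrp1, which binds bacterial cell walls (6.22), Ifitm6 (6.09), and Ankrd22 (6.28). With 1 CPM added, leaving out granule-gene cells moved Cd177 from 6.605 to 5.16, Pglyrp1 from 6.08 to 5.32, and Ifitm6 from 6.02 to 4.83. As means over cells they had 4.97, 3.60, and 4.41. Mrgpra2b then had 5.19 in place of 6.29, and Ankrd22 had 3.91 in place of 5.96.

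Of 8310 genes with at least 10 CPM on the higher side and 20 UMIs in all, 979 were at least 2-fold higher in members (11.8%) and 5088 at least 2-fold lower (61.2%), with 1 CPM added to each level, and the median log2 ratio was -1.55. The members were chosen by this contrast, so nothing is read from these shares, and the counts of lists in this comparison stand beside them. With at least 50 CPM required, which tests fewer genes, 1747 were lower. As a mean over cells, 79 of the 193 named genes called in this comparison moved by over 1.5 times and 173 stayed at least 2-fold apart in the same direction. Among those that moved and stayed were Stfa1 (4.90 in place of 7.72), Ly6g (3.935 and 6.43), Acod1 (3.29 and 4.93), Ccl4 (2.80 and 4.20), and Ccl3 (2.48 and 3.78). Those that did not stay included Vegfa (-0.60), Ptgs2 (0.94), and Hmgb2 (0.71). Among the lowest ratios, Fn1, fibronectin, stood at 25.8 CPM against 2041 CPM, a log2 ratio of -6.31 (-6.87 to -5.80). Sparc, a matrix protein, had a log2 ratio of -6.58 (-7.21 to -6.02), and Cd163, the macrophage receptor for hemoglobin bound to haptoglobin, had -8.03 (-13.34 to -5.55) with 1 UMI in members. Aebp1 and Serpina3n also had 1 UMI each in members, with log2 ratios of -8.33 (-13.63 to -5.85) and -8.10. Gpx3, Slc7a2, Fabp4, Mmp3, and Lgals1 lay between -6.73 and -6.39.

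All 20 genes of the list of neutrophil identity were higher in members, with a median log2 ratio of 4.84 beside -1.55 over all genes tested. S100a8 and S100a9 belong to this list and chose the cells. Hdc, which makes histamine, stood at 1934 CPM against 88.1 CPM, a log2 ratio of 4.46 (4.37 to 4.54). Acod1, which makes the antimicrobial metabolite itaconate, stood at 3187 CPM against 104 CPM, with 4.94 (4.87 to 5.02). Trem1, an activating receptor of myeloid cells, had 4.59 (4.46 to 4.73), and Slpi, an inhibitor of neutrophil elastase, had 4.15 (4.08 to 4.22). Hdc was seen in 81.8% of members after thinning against 3.54% of T cells, and Acod1 in 76.1% against 1.97%.

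Receptors that sense chemoattractants and microbes were high in members. Of 11 chemoattractant receptors, 9 were higher, 1 was lower, and the median log2 ratio was 3.56. Fpr1 and Fpr2, which bind formylated peptides of bacteria, had log2 ratios of 5.79 (5.49 to 6.09) and 5.00 (4.82 to 5.19). Ptafr, the receptor of platelet-activating factor, had 3.58 (3.48 to 3.68), and Ccrl2, which binds chemerin, had 3.67 (3.55 to 3.78). The chemokine receptor Ccr1 stood at 1217 CPM against 217 CPM. The gene that was lower was C3ar1, the receptor of complement fragment C3a, at 4.16 CPM against 172 CPM, a log2 ratio of -5.37 (-7.00 to -4.15), whereas C5ar1, the receptor of C5a, stood at 562 CPM against 102 CPM. Cxcr4, which retains neutrophils in the marrow and rises as they age in the blood, stood at 357 CPM in members and 341 CPM in the other cells. It was seen in 24.9% of members and 37.8% of T cells after thinning, and was named here after its values were seen.

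Among 18 Fc and pattern receptors tested of 19 listed, 12 were higher and 2 lower, with a median log2 ratio of 2.00. Clec4d and Clec4e, lectins that bind mycobacterial and fungal glycolipids, stood at 4465 and 2571 CPM, with log2 ratios of 3.62 (3.57 to 3.67) and 3.38 (3.32 to 3.45). Tlr6, which senses lipopeptides together with Tlr2, had 4.31 (4.12 to 4.50), and Cd14, a co-receptor for endotoxin, had 2.41 (2.36 to 2.46). The inhibitory receptor Fcgr2b was lower, with -3.29 (-3.62 to -2.98). Of 14 adhesion genes 8 were higher and 3 lower, with a median of 1.23. Icam1, the ligand of leukocyte integrins, had 2.34 (2.22 to 2.46), and the integrins Itgb1 and Itgav were lower, at 77.3 and 14.1 CPM against 298 and 128 CPM.

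The members transcribed a distinct set of chemokines and genes of the IL-1 pathway. Of 15 chemokine genes, 4 were higher in members and 9 lower, beside 11.8% higher and 61.2% lower among all genes tested, and the median log2 ratio was -2.86. Those higher were Cxcl2 and Cxcl3, ligands of Cxcr2, and Ccl3 and Ccl4, attractants of monocytes and T cells. Cxcl2 stood at 22105 CPM against 4169 CPM, a log2 ratio of 2.41 (2.39 to 2.43), and Cxcl3 had 2.60 (2.51 to 2.70). Ccl4 stood at 9839 CPM against 533 CPM, with 4.21 (4.17 to 4.24), and Ccl3 at 5953 CPM against 433 CPM, with 3.78 (3.74 to 3.83). Cxcl2, Ccl3, and Ccl4 were seen in most members. After thinning, Cxcl2 was seen in 87.5% of members, against 15.4% of T cells and 64.4% of 876 macrophage-gated cells. The latter had 3 or more UMIs of Csf1r, C1qa, C1qb, and C1qc, with a median of 12183.5 UMIs before thinning. They are called macrophages in this text, but monocytes can pass this choice. Monocyte markers summed to 3154 CPM in them, and 701 of 886 had 3 or more C1q UMIs. Ccl3 was seen in 73.8% of members and 3.54% of T cells, and Ccl4 in 67.8% of members. Other ligands were lower in members, including Cxcl1 (-2.235) and Cxcl5 (-4.97), which also bind Cxcr2. Ccl2 had a log2 ratio of -2.87 (-3.17 to -2.59), Ccl8 of -5.12 (-5.37 to -4.87), and Ccl7 of -4.52. Cxcl9, an attractant of activated T cells, had no UMI in members and was at least 26.1-fold higher in the other cells, from a floor of 3 UMIs over the members.

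Of 21 tested genes of 22 in the list of inflammatory cytokines and the IL-1 pathway, 13 were higher and 4 lower, with a median log2 ratio of 1.33. Il1b stood at 4134 CPM against 619 CPM, a log2 ratio of 2.74 (2.69 to 2.79). It was seen in 71.2% (66.4% to 75.7%) of members after thinning, against 24.2% of macrophages and 3.94% of T cells. Without thinning, Il1b was seen in 79.3% of members, 56.1% of macrophages, and 14.2% of T cells. Il1a, the other IL-1 agonist, had 3.61 (3.47 to 3.74). Both arms of the pathway were high, since genes that oppose IL-1 also stood above the other cells: Il1rn, the receptor antagonist, at 2583 CPM with 2.59 (2.53 to 2.65), and Il1r2, the decoy receptor, at 1021 CPM with 3.61 (3.51 to 3.72). Nlrp3, an inflammasome sensor that acts in the processing of pro-IL-1β, stood at 2419 CPM against 222 CPM, with 3.44 (3.38 to 3.51). Tnf had 2.68 (2.60 to 2.76), and Ptgs2, the enzyme of prostaglandin synthesis, had 1.06 (0.97 to 1.16). Il6 was lower, at 5.82 CPM against 189 CPM (-5.03, -6.34 to -3.98).

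Genes that act on matrix and vessels were found in both directions, beside 11.8% higher and 61.2% lower among all genes tested. Of 18 proteases and inhibitors 7 were higher and 10 lower, with a median log2 ratio of -1.21. The higher ones included the neutrophil collagenase Mmp8 at 717 CPM against 25.6 CPM (4.81) and the gelatinase Mmp9 at 785 CPM against 50.4 CPM (3.96, 3.83 to 4.09). The lower ones included the macrophage elastase Mmp12 (-5.51, -5.94 to -5.11), the collagenase Mmp13 (-4.88), the inhibitor Timp1 (-6.46, -8.08 to -5.24), and the lysosomal cathepsins Ctss (-4.80) and Ctsl (-3.36). Of 12 tested angiogenic factors of 14 listed, 3 were higher and 8 lower, with a median of -2.89, or -2.575 with the 2 genes at 0 set to their bound. Prok2, a ligand of neutrophils that promotes vessel growth, was higher (4.25, 3.82 to 4.68), although as a mean over cells its log2 ratio fell from 3.96 to 0.93 with 1 CPM added. Also higher was Thbs1, an inhibitor of vessel growth, at 3234 CPM against 1199 CPM (1.43, 1.38 to 1.48). Vegfa, the main growth factor of endothelium, stood at 116 CPM against 245 CPM (-1.08, -1.34 to -0.84). Pdgfb and Vegfb, both named after their values were seen, had no UMI in members and were at least 9.41-fold and 4.82-fold higher in the other cells.

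Of 15 tested genes of 16 on a list for neutrophils of inflamed and tumor tissue, 7 were higher and 4 lower, with a median of 0.94. This list shares Ccl3, Ccl4, Icam1, and Ptgs2 with lists given above, and some other lists also share genes, so their counts are not independent. Cd274, which encodes PD-L1, a ligand that restrains T cells, had 1.94 (1.80 to 2.09) and was seen in 21.04% of members after thinning, against 11.5% of macrophages and 7.48% of T cells. Tnfrsf23, a decoy receptor for TRAIL, had 3.34. Spp1, osteopontin, stood at 4466 CPM with a log2 ratio of -0.23 (-0.27 to -0.19), which turned to 0.54 as a mean over cells. Genes of MHC class II, by which dedicated antigen-presenting cells display peptides, were lower for all 6 tested of 8 listed, with a median of -5.08. H2-Aa stood at 44.9 CPM against 1772 CPM (-5.30, -5.72 to -4.92) and Cd74 at 294 CPM against 3698 CPM (-3.65, -3.81 to -3.50).

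Interferon-induced genes were higher for 9 of 18 tested of 22 listed and lower for 1, with a median of 1.08. Slfn4 had a log2 ratio of 5.15 (4.96 to 5.33), and Ifitm1, a membrane protein that limits entry of viruses, stood at 5237 CPM against 287 CPM, with 4.19 (4.14 to 4.24). Of 7 genes of the NADPH oxidase, which makes superoxide, 4 were higher and none lower, with a median of 1.15. Rac2, its regulatory GTPase in neutrophils, had 2.42 (2.28 to 2.56). The counts for the oxidase rested in part on the granule-gene cells described below. Without them, with 1 CPM added, Ncf1 fell from 1.15 to 0.87 and Cybb turned from 0.20 to -2.37. As means over cells, Ncf1 had 0.88 and Ncf4 had 0.99. Against the macrophages alone, 2 of the 7 genes were higher and 1 lower, with a median of 0.70. Ncf1 then had 0.70 and Ncf4 had 0.85. Of 15 survival genes 7 were higher and 2 lower, with a median of 0.54. Mcl1, on which neutrophil survival depends, stood at 2201 CPM against 883 CPM (1.32, 1.26 to 1.38), and the death receptor Fas had 2.75 (2.54 to 2.96). Of 21 tested transcription factors of 22 listed, 8 were higher and 4 lower, with a median of 0.40. Klf2 was higher (2.15, 2.01 to 2.29), whereas Klf4, a factor of monocytes, was lower (-4.48, -4.96 to -4.03), as was Cebpa, which acts early in granulocyte formation (-3.49, -4.62 to -2.56).

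Immediate early and heat shock genes, which also respond to tissue digestion, were mixed, with 5 of 15 higher, 4 lower, and a median of -0.23. Dusp1 had 1.74 (1.69 to 1.80), whereas Fosb had -2.84 (-3.12 to -2.56) and Fos -1.91. The part of digestion was not tested. Of 20 genes of glycolysis and hypoxia 5 were higher and 5 lower, with a median of -0.33. Slc2a3, a glucose transporter with high affinity, had 4.94 (4.66 to 5.23), and Hk3, the hexokinase of myeloid cells, had 2.34 (2.13 to 2.56), while Hif1a was lower (-1.63, -1.86 to -1.41). Of 10 tested cell cycle genes of 15 listed 8 were lower and 1, Hmgb2, was higher (1.03, 0.91 to 1.14), with a median of -2.39, beside -1.55 and 61.2% lower over all genes tested. Mki67, a marker of dividing cells, held 19 UMIs in all members. Of 7 azurophil granule genes only Serpinb1a, a protease inhibitor, had enough UMIs to be tested, and its log2 ratio was 0.22 (-0.19 to 0.60). With 1 CPM added it turned from 0.21 to -1.98 without granule-gene cells and to -1.72 as a mean over cells. Elane, Mpo, Prtn3, Ctsg, and Prss57 had no UMI in members.

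**Figure D1:**
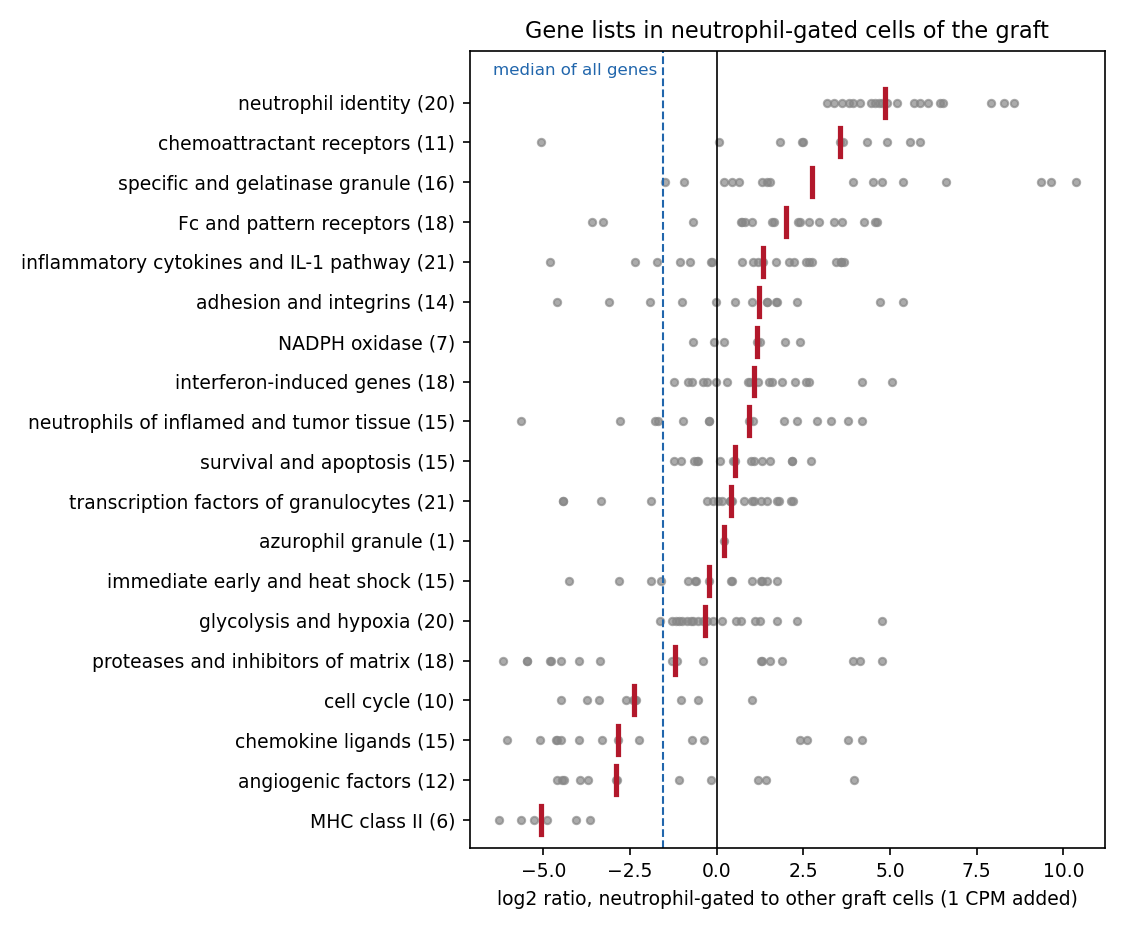
Log2 ratio of members to the other graft cells for each gene (gray points) of the 19 lists, with list medians as red bars and the number of tested genes in parentheses. List medians ran from -5.08 for MHC class II to 4.84 for neutrophil identity, and the dashed line marks the median of -1.55 over all genes tested.

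The maturity genes asked whether the members were precursors or mature cells, and they divided the members sharply. Nearly all UMIs of Ngp, Camp, and Ltf lay in 21 members (5.37%, 3.36% to 8.09%), the granule-gene cells, which had at least 0.5% of their UMIs in these genes. The 21 held 98.3% of the Ngp UMIs (8174 of 8316), 99.5% of the Camp UMIs, and 99.3% of the Ltf UMIs. The summed share ran from 0.949% to 10.2% of UMIs in these cells, with a median of 7.60%, and the next member had 0.286%. No UMI of any of the 3 genes was found in 334 members. In all members the 3 genes summed to 11551 CPM, which was 3532 CPM as a mean over cells and 174 CPM without the 21. The values behind this division were seen before it was made, and it is a description with no test. All of the 21 had Cxcr2, although after thinning it was seen in 6 of 20 (30%, 11.9% to 54.3%), against 71.8% of the Retnlg cells and 46.9% of the remaining members described next. Their S100a8 and S100a9 share (23.9% to 37.1%, median 30.8%) was at the top of the range, and they were deeper than other members, with a median of 9285 UMIs.

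A further 39 members (9.97%, 7.19% to 13.4%) had at least 0.5% of their UMIs in Retnlg without being granule-gene cells. They are called Retnlg cells here and had a median of 4473 UMIs and an S100a8 and S100a9 share of 18.5%. This division was also made after values were seen, and it has no gap, since 21 members lay between 0.25% and 0.5% and 13 between 0.5% and 1%. The remaining 331 members (84.7%, 80.7% to 88.1%) had a median of 2291 UMIs and an S100a8 and S100a9 share of 6.78%. Retnlg itself stood at 18065 CPM in granule-gene cells, 22273 CPM in Retnlg cells, and 470 CPM in the remaining members.

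**Figure D2:**
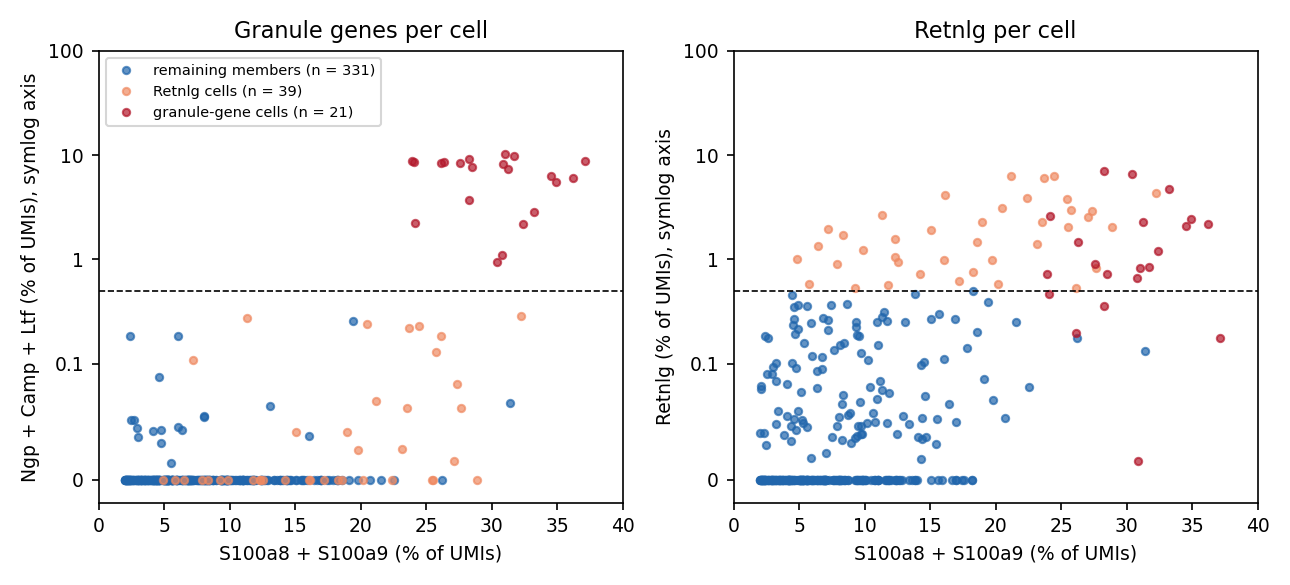
Share of UMIs in Ngp, Camp, and Ltf (left) and in Retnlg (right) against the share in S100a8 and S100a9, with 1 point per member, linear below 0.1% and logarithmic above, and a dashed line at 0.5%. The 21 granule-gene cells stand apart on the left, at 0.949% or more, and the 39 Retnlg cells run on into the 331 remaining members on the right.

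Granule-gene cells transcribed granule proteins and little of the cytokines seen in the other members. The genes named for this comparison and the next were chosen after their values were seen. Besides Ngp, Camp, and Ltf, which chose the cells, the highest ratios to the other members belonged to Trp53inp2, a regulator of autophagy, and Itgb2l, an integrin subunit (5.51, 4.18 to 7.20 for each), Chil3, a chitinase-like protein (5.13, 4.78 to 5.50), Cybb, the catalytic subunit of the NADPH oxidase (4.95, 4.56 to 5.36), Adpgk, a glucokinase that uses ADP (4.75, 4.02 to 5.57), and Serpinb1a (4.60, 3.60 to 5.75). Lcn2, which binds bacterial siderophores, stood at 13485 CPM in granule-gene cells, 3244 CPM in Retnlg cells, and 731 CPM in the remaining members. Cebpe, the factor of specific granule genes, had 28 UMIs in all members and stood at 89.0, 15.6, and 8.66 CPM in the same order. Serpinb1a is on the azurophil list, of which Elane, Mpo, Prtn3, and Ctsg had no UMI. Mki67 stood at 9.89 CPM.

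Il1b and Cxcl2 were nearly absent from granule-gene cells, and other cytokine genes were low there. Il1b had 1 UMI in the 21 cells, 4.95 CPM (0.125 to 27.6), and its log2 ratio against other members was -9.97 (-15.28 to -7.49). Cxcl2 had 14 UMIs, 69.3 CPM (37.9 to 116), with -8.58 (-9.45 to -7.84). After thinning, Il1b was seen in 1 of 20 granule-gene cells (5.00%) and Cxcl2 in none (0% to 16.8%), although Cxcl2 was seen in 38.1% of the 21 without thinning. Ccl3 was seen in 25% after thinning (8.66% to 49.1%), and in 61.9% without it, and Il1rn and Acod1 in 15% each after thinning. Ccrl2 had no UMI and was at least 70.5-fold higher in the other members, and Tnfaip3, an inhibitor of NF-κB, at least 51.6-fold, from a floor of 3 UMIs over the granule-gene cells. Cxcr2 and Csf3r were present at lower levels. Cxcr2 stood at 440 CPM (354 to 542) in granule-gene cells, 1163 CPM (1015 to 1325) in Retnlg cells, and 808 CPM (747 to 873) in the remaining members. Csf3r stood at 223 CPM (162 to 298), 1469 CPM (1303 to 1650), and 1686 CPM (1597 to 1778).

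Of 2374 genes with at least 50 CPM on the higher side, 484 were at least 2-fold higher in granule-gene cells than in the other members (20.4%) and 802 lower (33.8%), with a median log2 ratio of -0.26. Since Ngp, Camp, and Ltf chose the cells by this contrast, nothing is read from these shares. Of 16 tested specific and gelatinase granule genes 13 were higher and 1 lower (median 3.43), the 3 genes of the choice among them, and of 7 NADPH oxidase genes 4 were higher and none lower (1.19). All 10 chemokine genes were lower, with a median of -5.09, or -4.00 with genes at 0 set to their bound. Of 16 genes of the IL-1 pathway and cytokines 14 were lower and 1 higher (-4.05), of 14 interferon-induced genes 12 were lower (-4.88, or -2.785 at the bound), and of 14 immediate early genes 12 were lower (-3.67). Survival genes were lower for 11 of 12 (-1.84) and transcription factors for 13 of 18 (-1.63). Hemoglobin genes also stood among the lowest ratios, and their UMIs came from the 5 members named above.

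Retnlg cells were compared with the remaining members, and they combined genes of specific and gelatinase granules with lower cytokine levels. Besides Retnlg, which chose the cells, the highest ratios belonged to Ngp (4.85, 4.13 to 5.65), Ly6g (4.40, 3.73 to 5.14), Mmp8 (3.83, 3.52 to 4.15), Ifitm6 (3.73, 3.45 to 4.01), Ly6c2 (3.03, 2.54 to 3.53), and Tkt, an enzyme of the pentose phosphate pathway that yields NADPH (2.99, 2.29 to 3.72). Mmp8 stood at 1855 CPM in granule-gene cells, 1952 CPM in Retnlg cells, and 137 CPM in the remaining members. Ngp was at 644 CPM in Retnlg cells, far below the 40434 CPM of granule-gene cells. Prok2 was also higher in Retnlg cells (2.81, 2.09 to 3.55), as was Nfe2, a transcription factor (2.77, 2.00 to 3.57). The lowest ratios, besides hemoglobin genes, belonged to the heat shock gene Hspa1a, with 1 UMI in Retnlg cells (-7.15, -12.45 to -4.66), Traf1, an adapter of TNF receptors, with 2 UMIs (-4.56, -7.62 to -2.69), Il1a (-4.23, -5.30 to -3.35), and Clec4n, a lectin of fungal recognition (-3.73, -4.95 to -2.74).

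Levels of the leading cytokines in Retnlg cells lay between those of the other sets of members. Il1b stood at 1926 CPM (1735 to 2132) in Retnlg cells and 5694 CPM (5531 to 5861) in the remaining members, a log2 ratio of -1.56 (-1.72 to -1.41). Cxcl2 stood at 8128 CPM (7731 to 8541) and 30951 CPM (30568 to 31337), with -1.93 (-2.003 to -1.86). After thinning, Il1b was seen in 64.1% of Retnlg cells and 76.1% of the remaining members, and Cxcl2 in 76.9% and 94.2%. Csf3r differed little between these sets, with a log2 ratio of -0.20 (-0.39 to -0.01).

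Of 2292 genes tested, 308 were at least 2-fold higher in Retnlg cells (13.4%) and 424 lower (18.5%), with a median of -0.08. Retnlg chose the cells by this contrast, so nothing is read from these shares. Of 13 specific and gelatinase granule genes 9 were higher and 1 lower (median 1.39), and of 20 neutrophil identity genes, Retnlg among them, 8 were higher and 2 lower (0.50). Of 10 chemokine genes 8 were lower (-1.47), as were 11 of 15 cytokine and IL-1 genes (-1.81), 10 of 14 immediate early genes (-1.45), and all 4 MHC class II genes (-2.30), with none higher. Interferon-induced genes were lower for 8 of 15 and higher for 1 (-1.23).

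The remaining 331 members, most of the neutrophils, had the most cytokine transcripts. They had the highest levels among the 3 sets for Il1b, Cxcl2, Ccl3 (8367 CPM, against 1723 CPM in Retnlg cells and 336 CPM in granule-gene cells), Ccl4 (13819, 3213, and 247 CPM), Nlrp3 (3444, 628, and 29.7 CPM), and Tnf (1825, 337, and 74.2 CPM). The same order held for Il1rn (3646, 670, and 158 CPM), Acod1 (4427, 1194, and 129 CPM), Icam1 (814, 93.4, and 14.8 CPM), Cd274 (569, 62.3, and 9.89 CPM), and Spp1 (6176, 1552, and 411 CPM). Wfdc17, a small secreted protein, was highest in Retnlg cells, at 9686 CPM, against 3973 CPM in the remaining members. Depth rose as these levels fell, with medians of 2291, 4473, and 9285 UMIs, and its part in these differences was not tested beyond the thinned shares. Some markers of other cell types moved with the cytokine levels. From granule-gene cells to Retnlg cells to the remaining members, macrophage markers summed to 104, 239, and 474 CPM, fibroblast markers to 79.1, 125, and 160 CPM, platelet markers to 0, 5.19, and 35.9 CPM, and erythroid markers to 29.7, 41.5, and 7624 CPM. Monocyte markers moved the other way, with 1637, 768, and 255 CPM, as did the median mitochondrial share, with 1.13%, 0.824%, and 0.433%.

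**Figure D3:**
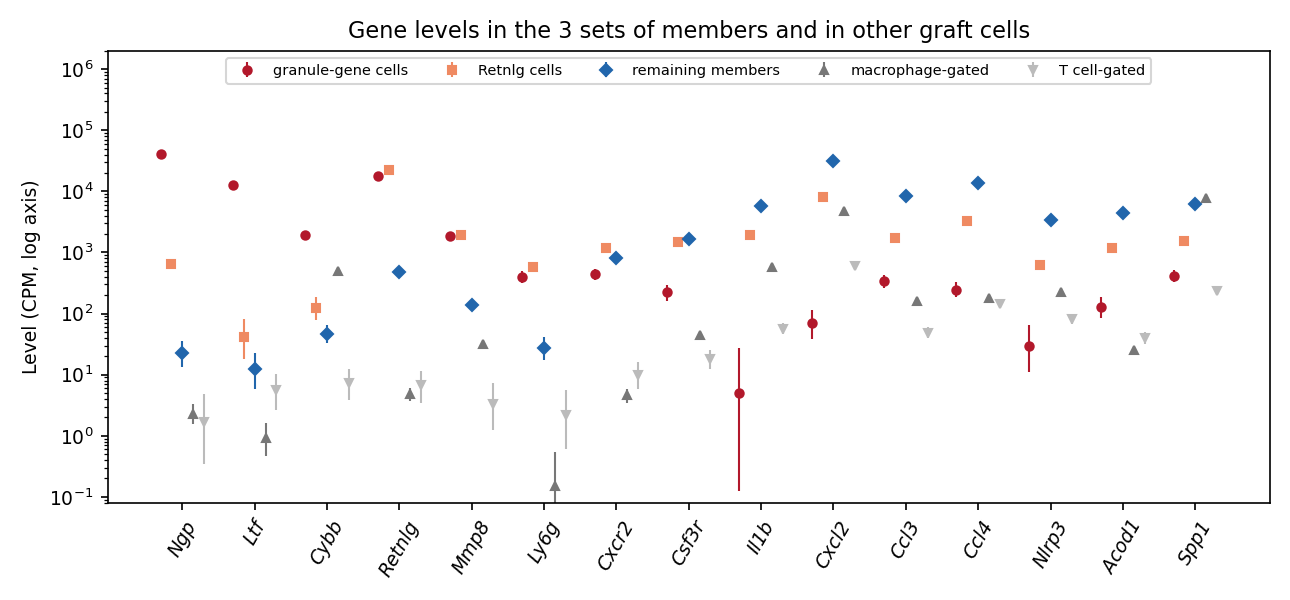
Levels (CPM, log axis, bars are exact 95% intervals for counting error) of 15 genes in granule-gene cells, Retnlg cells, remaining members, and macrophage- and T cell-gated cells of the graft. Ngp falls from 40434 to 22.3 CPM from granule-gene cells to remaining members, while Cxcl2 rises from 69.3 to 30951 CPM.

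The summed share of interferon-induced genes was high in some Retnlg cells and some remaining members, but not in granule-gene cells. Ifitm1 made up most of this sum, with 5237 of 8332 CPM in all members. In Retnlg cells the list summed to 11087 CPM, against 9133 CPM in the remaining members. Yet 8 of its 15 tested genes were lower in Retnlg cells and 1 was higher. Members with at least 1% of their UMIs in the 22 listed genes numbered 136 (34.8%, 30.1% to 39.7%). They were 0 of 21 granule-gene cells (0% to 16.1%), 15 of 39 Retnlg cells (38.5%, 23.4% to 55.4%), and 121 of 331 remaining members (36.6%, 31.4% to 42.0%). The share ran to 6.45% with a median of 0.744% and had no gap at the limit, with 44 members at 0.8% to 1% and 29 at 1% to 1.2%. Within the remaining members, the 121 were compared with the other 210, whose depth was similar (medians 2160 and 2364.5 UMIs). The list chose these cells, so its own genes are a description. Among them Cxcl10, an attractant of T cells, stood at 478 against 18.96 CPM, Rsad2, which encodes the antiviral protein viperin, at 506 against 68.3 CPM, and Ifitm1 at 10599 against 2833 CPM.

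Outside the list, genes were named after their values were seen. Ifi27l2a was higher in the interferon members (1.82, 1.38 to 2.27), and besides the hemoglobin genes, whose UMIs came from few cells, Stfa1 (-4.04, -5.51 to -2.89), Cxcl1 (-1.58, -2.31 to -0.92), Il23a, a subunit of IL-23 (-1.50, -2.16 to -0.89), and Tnf (-1.27, -1.46 to -1.08) were lower. Cxcl2 stood at 20096 against 36725 CPM and Il1b at 5004 against 6061 CPM. Of 2129 genes 96 were at least 2-fold higher (4.51%) and 75 lower (3.52%), with a median of 0.05, and nothing is read from these shares because the list used this contrast. The 75 became 199 with members chosen at 1% and 115 at 5%. Of the 19 neutrophil identity genes tested none was 2-fold higher or lower, and of 17 glycolysis and hypoxia genes 3 were lower.

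Members were also ordered by the share that chose them and divided into 4 groups of near-equal size, which is a description only. All 21 granule-gene cells lay in the highest group (12.5% or more), so the levels of granule genes there restate where these cells lie, and their part in the other levels was not tested. Ngp stood at 4.22, 17.1, 22.1, and 16438 CPM from the lowest to the highest group, and Retnlg at 261, 815, 1629, and 15243 CPM. Ly6g had no UMI in the lowest group and stood at 394 CPM in the highest. Clec4e stood at 3702, 4359, 2169, and 1391 CPM, and Acod1 at 3634, 5827, 4284, and 1261 CPM. Cxcr2 stood at 599, 768, 1027, and 815 CPM. The highest group was also the deepest, with a median of 3856 UMIs against 2237 in the lowest, and scaling by the median ratio of genes would shift its log2 ratios to the lowest group by 0.23.

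Positions and promoters were read for the genes that carried these differences. Coordinates are from GENCODE M21 on GRCm38, matched by gene identifier (30934 of 31053 genes matched). The build behind the counts is not settled, since the labels name mm9 and the methods another genome. The 3 granule genes lie on chromosome 9: Camp (ENSMUSG00000038357, chr9:109847379-109849617), Ngp (ENSMUSG00000032484, chr9:110419747-110423012), and Ltf (ENSMUSG00000032496, chr9:111019271-111042767). Cxcl1, Cxcl2, and Cxcl3 lie on chromosome 5, Cxcl2 (ENSMUSG00000058427) at chr5:90903871-90905938, and Ccl3 and Ccl4 lie near each other on chromosome 11, at chr11:83647844-83649355 and chr11:83662584-83664683. S100a8 and S100a9 lie at chr3:90668978-90670035 and chr3:90692632-90695721.

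Promoters of 300 bases were taken from RefSeq (GRCm38.p6). The letters TTNNGNAAT, a pattern of C/EBP factors, were found on either strand in 11.5% of 32851 promoters and in 3 of 6 promoters of granule genes (Ngp, Ltf, and Cd177, but not Camp, Lcn2, or Mmp8). The letters GGANTTNCC, a pattern of NF-κB, were found in 3.945% of promoters and in 2 of 6 promoters of Cxcl2, Ccl3, Il1b, Tnf, and Nlrp3, that of Cxcl2 and 1 of Nlrp3. These 6 promoters belong to 5 genes, with 2 for Nlrp3, and 4.54% of 27025 genes had a match in any promoter. Ccl4 was also in the set, but no promoter of it was read. A match describes the letters and does not show binding. The promoters of the 3 granule genes and of Cxcl2 are printed 5′ to 3′ with matches in capitals. They lie at chr9:110419558-110419857 (plus strand, Ngp), chr9:109849407-109849706 (minus strand, Camp), chr9:111019042-111019341 (plus strand, Ltf), and chr5:90903649-90903948 (plus strand, Cxcl2).
Ngp: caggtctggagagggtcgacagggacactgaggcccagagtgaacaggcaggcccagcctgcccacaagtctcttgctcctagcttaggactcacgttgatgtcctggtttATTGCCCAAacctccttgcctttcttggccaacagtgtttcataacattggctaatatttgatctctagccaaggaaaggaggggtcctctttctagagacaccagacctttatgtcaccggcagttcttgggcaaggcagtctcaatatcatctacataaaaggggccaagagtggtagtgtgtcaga
Camp: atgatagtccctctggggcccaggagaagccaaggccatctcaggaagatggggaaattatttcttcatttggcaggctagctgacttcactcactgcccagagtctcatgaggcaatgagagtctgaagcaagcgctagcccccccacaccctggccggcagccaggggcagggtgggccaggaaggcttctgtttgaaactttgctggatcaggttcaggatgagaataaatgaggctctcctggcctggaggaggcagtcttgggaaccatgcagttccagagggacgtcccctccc
Ltf: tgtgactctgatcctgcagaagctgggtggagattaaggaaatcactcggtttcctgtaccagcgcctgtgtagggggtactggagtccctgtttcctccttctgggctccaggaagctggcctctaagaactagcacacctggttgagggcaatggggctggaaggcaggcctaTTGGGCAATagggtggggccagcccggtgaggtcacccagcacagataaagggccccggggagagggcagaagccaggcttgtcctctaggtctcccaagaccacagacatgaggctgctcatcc
Cxcl2: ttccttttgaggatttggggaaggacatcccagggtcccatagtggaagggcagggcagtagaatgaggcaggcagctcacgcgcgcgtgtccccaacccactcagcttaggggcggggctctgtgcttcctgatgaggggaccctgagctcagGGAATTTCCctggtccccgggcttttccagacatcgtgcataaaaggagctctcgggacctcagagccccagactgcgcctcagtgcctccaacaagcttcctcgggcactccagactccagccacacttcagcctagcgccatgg

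The last comparison asked how the graft members differed from cells of the cultures that passed the same filters and choice. In Co-Mac 600 of 7257 cells did so (8.27%, 7.64% to 8.93%), with a median of 6745.5 UMIs, and in VD-Mac 704 of 8825 (7.98%, 7.42% to 8.56%). As a set, these cells differed from the graft members in their markers and transcripts. Only 416 of the 600 and 292 of the 704 had a UMI of Cxcr2, Csf3r, or G0s2, and Retnlg, at 6919 CPM in the graft, stood at 0.998 CPM in Co-Mac and 10.1 CPM in VD-Mac. The cultured cells had transcripts of early granules and of division that were at or near 0 in the graft members. Elane stood at 350 CPM in Co-Mac and 142 CPM in VD-Mac, and Prtn3, another azurophil protease, at 968 and 424 CPM. Against a floor of 3 UMIs over the members, Prtn3 was at least 388-fold, Elane at least 140-fold, and Cdk1, a kinase of cell division, at least 74.1-fold higher in Co-Mac. The chemokine gene Ccl17 and the dendritic cell marker Fscn1 were also higher there, by at least 109.7-fold and 9.66-fold. In the 416 Co-Mac cells with a marker UMI, these bounds were 450 (Prtn3), 158.5 (Elane), 77.9 (Cdk1), 127.3 (Ccl17), and 8.95 (Fscn1). The part of other cell types among the cultured cells was not tested.

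Of 7796 genes tested, 1558 were at least 2-fold higher in the graft members than in the Co-Mac cells (20%) and 4310 lower (55.3%), with a median log2 ratio of -1.36. With at least 50 CPM required, 1676 were lower. All 7 azurophil granule genes were lower, with a median of -7.78, or -6.56 with genes at 0 set to their bound, as were 14 of 15 cell cycle genes (-5.44, or -5.33 at the bound). Specific and gelatinase granule genes were higher for 10 of 17 and lower for 3 (1.64). Ngp, Camp, and Ltf were present in the cultures, with log2 ratios of graft to Co-Mac of 2.22 (2.18 to 2.26), 2.83 (2.75 to 2.91), and 3.39 (3.29 to 3.48). This rested on the granule-gene cells, which were 21 of 391 in the graft (5.37%), 45 of 600 in Co-Mac, and 74 of 704 in VD-Mac. Without such cells in either library the log2 ratios to Co-Mac turned to -1.26, -0.38, and -0.68 with 1 CPM added. Within them Ngp stood at 40434 CPM in the graft, 13974 CPM in Co-Mac, and 13624 CPM in VD-Mac. Genes of tissue inflammation were higher in the graft, with 9 of 13 chemokine genes higher and 1 lower (5.39), 14 of 18 cytokine and IL-1 genes higher and 2 lower (4.37), and 16 of 17 interferon-induced genes higher (4.91). Immediate early and heat shock genes moved the same way, with 12 of 15 higher and 1 lower (3.73). Some markers of other cell types did so too. Hbb-bs and Col3a1 had 4263 and 68 UMIs in graft members and no UMI in the Co-Mac cells. The part of these in the differences was not tested. Cxcl2 stood at 42.6 CPM in Co-Mac and 54.0 CPM in VD-Mac, so that the log2 ratio of the graft was 9.02 (8.85 to 9.19) and 8.68 (8.52 to 8.84). Il1b had 6.17 (6.02 to 6.32) and 5.83 (5.69 to 5.97), Acod1 9.40 (8.91 to 9.95) and 8.595 (8.20 to 9.02), and Hdc 9.41 (8.78 to 10.12) and 8.58 (8.07 to 9.13). Tissue, culture, mice, and library differ together between these cells and cannot be told apart.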

How the data were processed

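The authors deposited raw UMI counts per gene and cell, made with Cell Ranger 3.1.0 per the file header, for 3 libraries of Single Cell 3′ chemistry, 1 per condition (the submitters' notes name Seurat 3.1.1). Hashtag UMIs were left out of totals. The members and gene lists were chosen with earlier results of these data known. Cells were filtered and chosen as given above, levels are CPM of summed UMIs, and ratios of single genes have no added count, while calls and list medians have 1 CPM added. Exact intervals follow the Poisson law (levels), Clopper-Pearson (shares), and the binomial law given the summed count (ratios). Cells were thinned once with seed 1. Genes named were the markers and maturity genes, the 15 highest and 10 lowest ratios, and, of each list, the 3 most abundant genes and any called gene with at least 50 CPM, with further extremes against Co-Mac (10 each way) and in the 4 groups by share and interferon members against other members (5 each way). In the splits made after values were seen (granule-gene cells, Retnlg cells, and interferon members within the remaining members) genes were named from the 10 highest and 10 lowest ratios and the lists, after their values were seen. Genes known only by clone or model names (Gm, Rik, BC, and the like) and mitochondrial and ribosomal protein genes were counted but not named. Besides genes marked in the text, Cebpe, Mki67, Mpo, Prss57, and Wfdc17 were named after their values were seen. No doublet caller was run, and an alternative left out members with 3 or more C1q UMIs. Other alternatives changed the filters, the choice, the scaling, the added CPM, the comparison cells, and the summing. The code was tested on simulated data. Python 3.11.15 was used with numpy 2.4.6, scipy 1.17.1, pandas 2.3.3, and matplotlib 3.10.9.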

Additional observations from a re-analysis of the deposited data

Results flagged for a closer look

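The graft library also counted hashtag antibodies, a readout that no comparison above used and that drew attention because it carried signal. There was no control, and the signal stood above the limit of a count of 0. Of 20 hashtags listed, 4 had 10000 UMIs or more. All 4 were listed as human hashtags (clones LNH-94 and 2M2), fewer than the 5 mice, while the 10 listed as mouse hashtags had at most 69 UMIs each, and what the human tags bound in cells with mouse transcripts was not tested. Members had a median of 152 UMIs of these 4 tags and the other cells a median of 214. The tag with most UMIs made up a median of 38.8% of a member's tag UMIs and 56.7% of another cell's, and it reached 70% in 21 members and 621 other cells. Grouped by the tag with most UMIs, members were 32 of 101 cells (31.7%, 22.8% to 41.7%), 9 of 130 (6.92%, 3.21% to 12.7%), 296 of 1245 (23.8%, 21.4% to 26.2%), and 54 of 668 (8.08%, 6.13% to 10.4%). The labels do not say which tag marked which mouse, so the tags were not read as mice.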

How the results depend on the processing

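Members came from 1 library of pooled mice, so no value speaks to variation between mice, and members with few UMIs limit what can be seen in single cells. The share of members (18.2%) was 21.13% with a choice at 1%, 13.11% at 5%, and 21.75% with under 5% mitochondrial UMIs. The summed CPM of Ngp, Camp, and Ltf (11551) was 9880.5 at 1%, 14759.5 at 5%, 11800.7 with a marker UMI required, 11144.5 without the Cd3 condition, 3532.1 as a mean over cells, and 173.9 without granule-gene cells, and the number of granule-gene cells was then 0 by construction. Il1b was 3852.8 CPM at 5%, 4811.2 as a mean over cells, and 4968.6 without granule-gene cells, and Cxcr2 was 876.4 CPM without them. Retnlg cells numbered 60 when taken from 0.25%. Genes lower in interferon members (75) were 199 at 1%, 115 at 5%, and 113 without the Cd3 condition. With at least 50 CPM required, fewer genes were tested, and 1747 were lower than in the other cells and 1676 lower than in Co-Mac. Ratios of hemoglobin genes to the other cells reversed at 5% (Hbb-bs -3.932, Hba-a1 -5.086, Hba-a2 -4.257, Hbb-bt -4.428) and without the 5 hemoglobin-rich members (-3.475, -4.42, -3.695, and -3.564), and that of Adpgk reversed without granule-gene cells (-0.07012). Without granule-gene cells in either library the ratios of graft to Co-Mac reversed for Ngp (-1.261), Camp (-0.3804), and Ltf (-0.6792). Apart from what the construction gives, the cause was not tested. Of 193 named genes called against the other cells, 189 kept their direction in the 5% choice and without hemoglobin-rich members, 192 without granule-gene cells, and all 193 in the other settings run. A 2-fold difference in the same direction was kept by 173 as a mean over cells, 178 at 5%, 185 against monocytes and macrophages, 188 without granule-gene cells, 189 without hemoglobin-rich members, and 190 to 192 in the others. Values moved by over 1.5 times for 79 as a mean over cells, 58 against monocytes and macrophages, 29 at 1%, 26 at 5%, 17 without granule-gene cells, 7 without the Cd3 condition, 5 without hemoglobin-rich members, 2 without members with C1q UMIs, and 0 in the others. The settings that left out granule-gene cells, hemoglobin-rich members, or members under 1000 UMIs, and those on the limits of the 3 sets, were chosen after seeing the data.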

Other observations

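Cells with 0.5% to 2% of UMIs in S100a8 and S100a9, which the choice left among the other cells, resembled the members. There were 97 of them, with a median of 2340 UMIs. Csf3r was found in 84, Cxcr2 in 61, and G0s2 in 48. They stood at 925 CPM for Csf3r, 396 CPM for Cxcr2, 2329 CPM for Acod1, 959 CPM for Hdc, and 20358 CPM for Cxcl2, and Ngp had no UMI. The choice at 2% therefore leaves out cells with these markers and little S100a8 and S100a9, in which Ngp was not found.

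Some further genes that were higher in members were on no list and were chosen after their values were seen, not as the highest ratios. Hcar2, the receptor of nicotinic acid and ketone bodies, stood at 2856 CPM in members against 65.3 CPM (log2 ratio 5.45, 5.36 to 5.54) and was seen in 83.6% of members after thinning against 1.97% of T cells. Slc7a11, the cystine transporter that feeds glutathione synthesis, stood at 5740 CPM against 396 CPM (3.86, 3.81 to 3.91). Srgn, the proteoglycan core of secretory granules, stood at 12145 CPM against 1904 CPM (2.67, 2.65 to 2.70), and Fth1, which stores iron, at 46487 CPM against 18524 CPM (1.33, 1.32 to 1.34). Csf1, the growth factor of macrophages, had a log2 ratio of 2.32 (2.14 to 2.49).

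Across the 385 thinned members, which share a library and a depth, Il1b and Cxcl2 had a Pearson correlation of 0.502 and a Spearman correlation of 0.6575, and Ccl3 and Ccl4 had 0.568 and 0.547. S100a8, which was used to choose the members, and Cxcl2 had -0.262 and -0.326. The thinned members included 20 granule-gene cells, with high S100a8 and S100a9 shares and no Cxcl2 UMI, and their part in this value was not tested. These correlations are a description with no test.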
